A study of Mus musculus with 14 samples.

Results

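Sonic hedgehog (SHH) signalling and its upstream factor HAND2 were followed in forelimb buds through 9 transcripts, which were the rows of the count tables whose symbol was Shh, Ptch1, Smo, Gas1, Hhip, Gli1, Gli2, Gli3 or Hand2. These are 9 of the 23284 symbols counted. All 9 were among the 12393 genes that passed the filter on low counts, so that none was lost to it. The members were named by their place in the pathway and by no cut on a measured value, but with earlier results of these data known.

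SHH is the ligand made by the polarizing region at the posterior margin of the limb bud, where HAND2 switches on its gene. It binds PTCH1, which otherwise keeps the membrane protein SMO inactive, and the freed SMO turns GLI2 and GLI3 from repressors into activators. Ptch1, Gli1 and Hhip are transcribed in responding cells and are widely used as readouts of the pathway, while HHIP and PTCH1 also bind and retain the ligand. BMP signalling, for which SMAD4 is the shared transducer, is linked to this pathway in limb buds through the BMP antagonist GREM1.

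RNA-seq was done on mouse forelimb buds (NMRI strain) from embryos of 30 somites, called E10.0, or of 35 somites, called E10.5, with both forelimb buds of 1 embryo as a replicate. The wild types were labelled Smad4+/+ (n = 3 per stage) and the mutants Smad4Δ/Δc (n = 4 per stage), with 1 Smad4 allele deleted in all cells and the other deleted where the Cre recombinase acted. Wild types and mutants all carried the Prrx1-Cre transgene (labelled PrxCreT/+), which is active in the limb mesenchyme and not in the ectoderm. The study's methods describe the wild types as littermates from a cross with Smad4 flox/+ females, whereas the labels name flox/flox females, and the litter of each embryo is not given in the sources used here. The genotype comparison asks which transcripts depend on mesenchymal SMAD4, and the stage comparison covers the time when the SHH, GREM1 and FGF feedback loop is set up.

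Between 34066930 and 61691258 reads per embryo were counted on genes. Smad4, the targeted gene, was expressed at 161 ± 8.43 CPM (reads per 1000000 reads on the genes tested, after TMM scaling) in wild types at E10.0 (SD, n = 3). The mutants had 39.8 ± 4.19 CPM (SD, n = 4). At E10.5 the wild types had 166 ± 2.27 CPM (SD, n = 3) and the mutants 37 ± 3.43 CPM (SD, n = 4). It was thus 4.04-fold lower at E10.0 (edgeR exact test, adjusted p = 3.49e-98) and 4.48-fold lower at E10.5 (adjusted p = 2.82e-112). The mutant replicates 4 and 5 of both stages stood apart from the other 10 libraries, because the ribosomal precursor Rn45s took 1.72% to 8.05% of their reads on genes and 0.151% to 0.478% in the others. All wild types are among the 10, and the results on the 9 genes are therefore also given without these 4 libraries.

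Of the markers of the labelled tissue, all 5 of limb mesenchyme were detected. Their summed level was lower in mutants (869 to 1010 CPM) than in wild types (1070 to 1220 CPM) at E10.0. The same held at E10.5 (980 to 1080 CPM against 1260 to 1320 CPM). Prrx1 was the largest part of the sum (means of 601 CPM in mutants and 733 CPM in wild types at E10.0). Singly, the 5 differed between genotypes by log2 values from -1.01 (Prrx2) to 0.11 (Fgf10) at E10.0. At E10.5 these ran from -0.83 (Prrx2) to -0.04 (Tbx5). The study counts Prrx2 among the SMAD4 target genes. Other sources of SHH in the embryo were checked as well. The floor plate and notochord markers Nkx2-2 and Noto had 0 reads in all 14 libraries, Foxa2 at most 1, and 1 of 8 neural tube markers and 2 of 7 notochord and gut markers passed the filter. The neural tube sum was 11 to 12.7 CPM in wild types and 8.19 to 10.3 CPM in mutants at E10.0, and 7.64 to 11.5 against 5.85 to 9.79 CPM at E10.5. Nearly all of this sum was Tubb3 (means of 11.5 and 8.95 CPM in wild types and mutants at E10.0). The notochord and gut sum was 2.85 to 4.34 CPM in wild types and 2.98 to 3.96 CPM in mutants of E10.0. In the later embryos it was higher in mutants without overlap (4.3 to 4.78 against 3.41 to 4.14 CPM), as was the notochord marker T (log2 0.87, adjusted p = 0.223), which did not pass. The lowest mutant had 0.747 CPM of T and the highest wild type 0.745 CPM. Most of the sum was Sox17, with means of 2.71 CPM in mutants and 2.65 CPM in wild types at E10.5. Of 7 heart and lateral plate markers 3 passed the filter (Hand1, Wt1 and Upk3b). At E10.0 the sum of the 7 was higher in mutants (9.12 to 22.6 CPM against 1.87 to 4.91 CPM). At E10.5 it was lower (1.07 to 3.32 CPM against 4.45 to 7.37 CPM). Wt1 (means of 7.59 against 1.46 CPM) and Upk3b (4.97 against 0.482 CPM) made up most of the rise at E10.0, and both means were lower in mutants at E10.5. The heart marker Nkx2-5 had at most 1 read, and Myl7 and Tnnt2 had means under 1 CPM in every group. Of 3 hindlimb markers Tbx4 alone passed the filter, and Pitx1 had at most 7 reads. The sum of the 3 was higher in mutants at E10.5 (12.6 to 16.5 CPM against 7.04 to 8.88 CPM). Nearly all of it was Tbx4 (means of 13.5 against 7.8 CPM), while Pitx1 (0.0957 against 0.125 CPM) and Islr2 (0.289 against 0.293 CPM) were not higher. All 8 markers of ectoderm and ridge, where Prrx1-Cre does not act, passed the filter. Their sums overlapped between genotypes at both stages (138 to 239 CPM). Singly, Krt5 was lower in mutants at E10.0 without overlap (log2 -0.40, exact test, adjusted p = 0.0485), but it did not pass the quasi-likelihood test (adjusted p = 0.107). The other 7 did not pass at E10.0. None of the 8 passed the exact test at E10.5, where Wnt7a was lower in mutants without overlap (-0.48, adjusted p = 0.148). The part of these cell type markers in the results below was not tested.

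The genome was searched for the GLI binding motif GACCACCCA, because members that are transcribed in responding cells could carry it near their start. Within 5 kb of the annotated gene start on either strand of mm9, an exact match was found in 1 of the 9 members, Ptch1, and in 7.93% of 22374 protein-coding genes. Both Ptch1 matches are shown with 12 bases on each side, 5′ to 3′ on the minus strand, which is the strand of the gene, and with the motif in capitals. The first (chr13:63674761-63674793) has its centre at position -303 from the gene start, and the second (chr13:63670581-63670613) at position 3877 inside the gene.
Ptch1 upstream match: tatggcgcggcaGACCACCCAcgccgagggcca
Ptch1 downstream match: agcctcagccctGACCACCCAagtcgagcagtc
In the RefSeq promoters of GRCm38.p6 (250 bases before to 50 after the start), which cover 7 of the 9 members, none of the 7 held the motif exactly or with 1 mismatch, against 0.253% and 6.74% of 32851 promoters. Counted from the gene start used above, the Ptch1 matches at -303 and 3877 lie outside a window of that size. The annotations used can also place a gene start at different bases, so the windows searched need not cover the same stretch of Ptch1. The matches found are letters in a window, with no binding data behind them here.

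Expressed per kb of exon, so that genes can be compared, the members fell into 3 tiers that were the same in all 4 groups. In wild types at E10.0 the transducer and the co-receptor lay at the top, with Smo at 71.5 CPM per kb and Gas1 at 58.6 CPM per kb, followed by Gli3 (37.5 CPM per kb) and Hand2 (25.6 CPM per kb). Gli2 (11.5 CPM per kb), Gli1 (8.48 CPM per kb) and Ptch1 (7.94 CPM per kb) formed the middle tier, in which Gli1 and Ptch1 overlapped between embryos. Shh (1.12 CPM per kb) and Hhip (1.06 CPM per kb) were the lowest and overlapped as well. At E10.5 Shh (2.59 CPM per kb) had moved above Hhip (1.35 CPM per kb) without overlap in wild types, and also in mutants (3.33 against 2.07 CPM per kb). Smo and Gas1 overlapped at E10.5 in both genotypes, as did Gli3 and Hand2. Exon lengths are from GENCODE vM1, and a different transcript model would shift these levels.

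**Figure D1:**
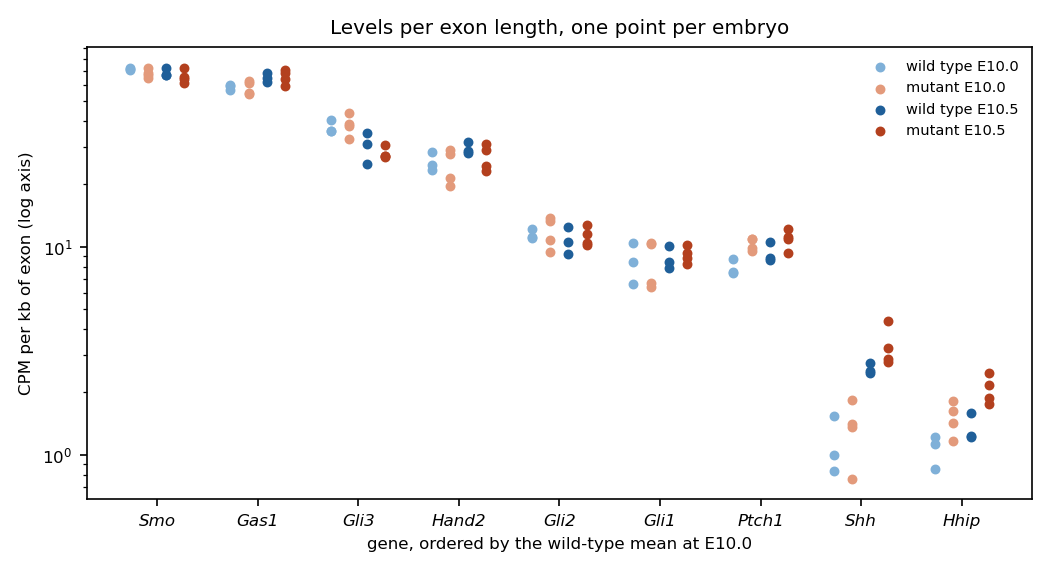
Levels of the 9 genes in CPM per kb of exon on a log axis, ordered along x by the wild-type mean at E10.0, with a point for each of the 14 embryos and a colour for each group. Smo and Gas1 lie at the top and Shh and Hhip at the bottom, and the points of Shh move up from E10.0 to E10.5.

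Of the 9 members, 2 passed the test between genotypes at E10.0 (Ptch1 and Hhip, both higher in mutants), where 6.61% of all genes tested passed it, and 1 at E10.5 (Hhip, higher in mutants), where 3.73% did. To pass, a gene had to change by 1.2-fold or more with an adjusted p no higher than 0.1. The median log2 fold change of the members was 0.03 at E10.0 and 0.05 at E10.5, against -0.02 and -0.01 over all genes tested. Between stages, Shh rose in wild types (1 of 9, where 10.1% of all genes passed), and in mutants Shh and Hhip rose and Gli3 fell (3 of 9, where 19.2% passed). The stage comparisons use the same embryos as the genotype comparisons, and the 4 are not independent. No member passed the quasi-likelihood test of the interaction of stage and genotype (0 of 9, with 0 of 9 also below an unadjusted p of 0.05 in edgeR, and 0 of 9 in DESeq2), where 0.186% of all genes did. The interaction log2 values of the members lay between -0.15 (Ptch1, Gli3) and 0.13 (Hhip).

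**Figure D2:**
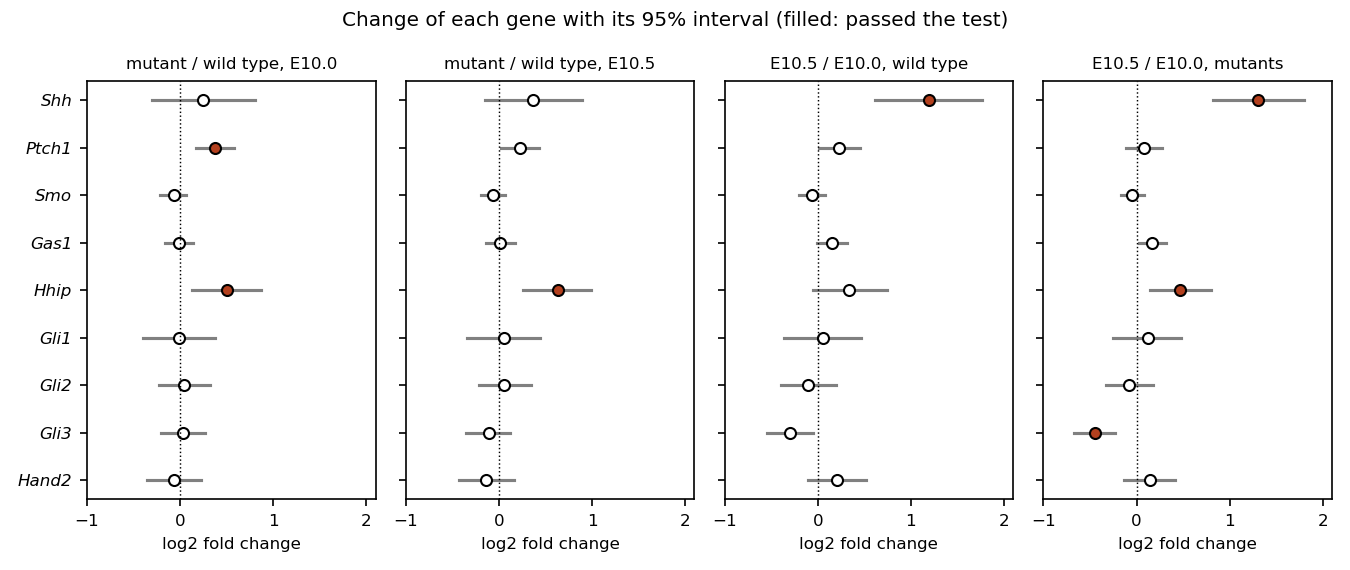
Log2 fold change of each member (x axis) with its 95% interval from edgeR's quasi-likelihood fit, in panels for the 2 genotype and the 2 stage comparisons; filled points passed the exact test. Shh stands at 1.31 in the stage panel of the mutants and close to it in that of the wild types, Hhip at 0.50 and 0.62 in the genotype panels, and most other intervals include 0.

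The ligand gene Shh (chromosome 5, 28783355 to 28793641, minus strand, mm9) was covered by 84 to 662 reads per embryo. At E10.0 it was expressed at 4.15, 2.25 and 2.69 CPM in the wild types and at 4.89, 3.77, 3.66 and 2.07 CPM in the mutants, in the order of their replicate numbers. At E10.5 the values were 6.82, 6.66 and 7.40 CPM in wild types and 11.8, 7.75, 8.80 and 7.52 CPM in mutants. At E10.0 the lowest and the highest embryo were both mutants, whereas at E10.5 every mutant lay above every wild type.

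The genotype difference of Shh passed the test at neither stage. Mutants differed from wild types by 0.25 on the log2 scale at E10.0 (95% interval -0.30 to 0.80, adjusted p = 0.659) and 0.37 at E10.5 (-0.15 to 0.89, adjusted p = 0.703), so that a rise of more than 1.5-fold in mutants lies within either interval. Without mutant replicates 4 and 5 it was 0.53 (adjusted p = 0.138) and 0.50 (adjusted p = 0.311). With stage, Shh rose 2.29-fold in wild types (SE 0.27 on the log2 scale, adjusted p = 0.000274) and 2.48-fold in mutants (log2 1.31, SE 0.231, adjusted p = 2.94e-07). No E10.0 embryo reached the level of any E10.5 embryo. The rise passed in all 14 fits that left out a library, and without mutant replicates 4 and 5 it was 1.18 in mutants (adjusted p = 0.000407). In whole buds, fewer cells of a type and less RNA per cell cannot be told apart, and this holds for every gene described here. Exons of Shh overlap 2 antisense lincRNAs in GENCODE (9530036O11Rik and Gm17493), and since the libraries were not stranded, their reads cannot be told apart from those of Shh.

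Ptch1 (chromosome 13, 63610261 to 63674474, minus strand), the SHH receptor and itself a target of the pathway, was higher in mutants at E10.0. The wild types were at 49.8, 57.6 and 49.3 CPM and the mutants at 62.9, 64.8, 71.8 and 71.8 CPM. All 4 mutants lay above the 3 wild types. The rise was 1.3-fold (log2 0.38, SE 0.0968, 95% interval 0.17 to 0.58, adjusted p = 0.0141). It passed without mutant replicates 4 and 5 (log2 0.31, adjusted p = 0.0284), but not when wild type replicate 1 (0.34, adjusted p = 0.11) or replicate 3 (0.35, adjusted p = 0.161) was left out.

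At E10.5 Ptch1 was at 69.0, 56.7 and 57.7 CPM in wild types and at 72.0, 72.9, 79.5 and 61.4 CPM in mutants. The lowest mutant fell between the wild types, and the difference of 0.23 (95% interval 0.02 to 0.43, adjusted p = 0.393) did not pass. Without mutant replicates 4 and 5 it was 0.26 (adjusted p = 0.179). The differences at E10.0 and E10.5 were themselves not distinguished (interaction -0.15, SE 0.136, adjusted p = 0.955). With stage Ptch1 changed by 0.23 in wild types (adjusted p = 0.215) and by 0.08 in mutants (adjusted p = 0.66), neither of which passed.

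Hhip (chromosome 8, 82490014 to 82581905, minus strand) encodes a membrane protein that binds hedgehog ligands and antagonizes them. It was covered by 229 to 679 reads per embryo. At E10.0 it was at 4.19, 5.91 and 5.50 CPM in wild types and at 6.96, 5.68, 8.88 and 7.92 CPM in mutants. Mutant replicate 3 lay below a wild type, and the other 3 mutants lay above all wild types. The rise of 1.41-fold (log2 0.50, SE 0.173) passed at an adjusted p of 0.092, close to the limit of 0.1. The higher of the mutant values were those of replicates 4 and 5, without which the difference was 0.30 (adjusted p = 0.289) and did not pass. Leaving out single libraries ended the call in 7 of 14 fits, those without wild type replicate 1 (0.36, adjusted p = 0.387) or 3 (0.55, adjusted p = 0.257), without mutant replicate 1, 4 or 5 of E10.0 (0.40 to 0.53, adjusted p = 0.106 to 0.211), and without mutant replicate 2 or 5 of E10.5 (adjusted p = 0.102 and 0.106).

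At E10.5 Hhip was at 6.01, 5.99 and 7.77 CPM in wild types and at 12.1, 10.6, 8.63 and 9.22 CPM in mutants. All 4 mutants lay above the 3 wild types, and here replicates 4 and 5 were the lower of the mutants. The rise was 1.54-fold (log2 0.62, SE 0.171, 95% interval 0.26 to 0.99, adjusted p = 0.0245), and without mutant replicates 4 and 5 it was 0.79 (adjusted p = 0.0023). It was lost without wild type replicate 1 (0.57, adjusted p = 0.193), wild type replicate 2 (0.57, adjusted p = 0.234) or mutant replicate 1 (0.54, adjusted p = 0.113).

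With stage, Hhip changed by 0.34 in wild types (95% interval -0.05 to 0.74, adjusted p = 0.299) and rose 1.38-fold in mutants (log2 0.47, SE 0.156, adjusted p = 0.0296). The mutants of the 2 stages overlapped, at 5.68 to 8.88 CPM and 8.63 to 12.1 CPM. The rise in mutants lay in replicates 1 to 3. It was 0.85 without replicates 4 and 5 (adjusted p = 0.00111) and 0.10 in replicates 4 and 5 alone (adjusted p = 0.813). Without mutant replicate 3 of E10.0 it was 0.36 (adjusted p = 0.149) and without mutant replicate 1 of E10.5 0.38 (adjusted p = 0.125). Same-numbered mutants of the 2 stages deviated together (correlation 0.269 to 0.611), but differently numbered ones overlapped this range (-0.587 to 0.383). With the replicate number as a block among the mutants alone, the rise was 0.34 (quasi-likelihood test, adjusted p = 0.163) and did not pass. This fit rests on 3 pairs, since mutant replicate 3 of E10.0 and replicate 2 of E10.5 have no partner.

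Smo (chromosome 6, 29685694 to 29711365, plus strand), the transducer that PTCH1 holds inactive, had the smallest errors of the 9. It was at 269, 268 and 273 CPM in wild types and 244, 253, 272 and 259 CPM in mutants at E10.0, and at 274, 252 and 252 CPM in wild types and 232, 247, 274 and 242 CPM in mutants at E10.5. The groups overlapped in all 4 comparisons. Its log2 fold changes lay between -0.07 and -0.05 in the 4 comparisons, with SE of 0.0581 to 0.0671, and none passed.

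Gas1 (chromosome 13, 60275766 to 60278726, minus strand), whose product is a co-receptor for SHH, was at 175, 168 and 178 CPM in wild types and 185, 181, 160 and 163 CPM in mutants at E10.0. At E10.5 the values were 184, 192 and 202 CPM in wild types and 209, 203, 189 and 176 CPM in mutants. Wild types of E10.5 all lay above those of E10.0, and the stage differences of 0.15 in wild types (adjusted p = 0.354) and 0.17 in mutants (adjusted p = 0.124) did not pass. The genotype differences were -0.01 at E10.0 (95% interval from -0.16) and 0.01 at E10.5.

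Gli1 (chromosome 10, 126766945 to 126778645, minus strand), an activator that is transcribed in response to the pathway, was at 25.0, 31.9 and 39.4 CPM in wild types and at 25.3, 24.1, 39.3 and 39.1 CPM in mutants at E10.0. The mutants fell into a lower pair, replicates 1 and 3, and a higher pair, replicates 4 and 5, and both pairs lay near the ends of the wild-type range. At E10.5 it was at 32.0, 38.3 and 29.8 CPM in wild types and at 31.2, 33.4, 38.4 and 35.1 CPM in mutants. The genotype differences of -0.01 (95% interval -0.40 to 0.38) and 0.05 (-0.34 to 0.44) did not pass. Without mutant replicates 4 and 5 the difference at E10.0 was -0.36 (adjusted p = 0.103), just short of the limit, and with them as the only mutants it was 0.31 (adjusted p = 0.171). Stage differences were 0.06 in wild types and 0.11 in mutants. Exons of Gli1 overlap Arhgap9 on the plus strand, and reads from the overlap were not counted for either gene where both were annotated.

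Gli2 (chromosome 1, 120730709 to 120950196, minus strand), the main activator among the GLI proteins, was at 76.5, 83.9 and 75.9 CPM in wild types and at 64.7, 74.1, 95.1 and 91.3 CPM in mutants at E10.0. As for Gli1, mutant replicates 1 and 3 were the lower and 4 and 5 the higher ones, on either side of the wild types. At E10.5 the values were 85.5, 63.2 and 72.2 CPM in wild types and 70.0, 71.6, 87.6 and 78.9 CPM in mutants. No comparison of Gli2 passed, with log2 fold changes between -0.10 and 0.06. With mutant replicates 4 and 5 as the only mutants, the difference at E10.0 was 0.26 (adjusted p = 0.0794), short of 1.2-fold, and it was -0.17 without them (adjusted p = 0.318).

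Gli3 (chromosome 13, 15555068 to 15821859, plus strand), which encodes the main GLI repressor of the limb bud, fell with stage in mutants, a call that was lost without replicates 4 and 5, and did not pass in wild types. At E10.0 it was at 346, 388 and 344 CPM in wild types and at 314, 363, 371 and 421 CPM in mutants. At E10.5 it was at 338, 238 and 299 CPM in wild types and at 296, 263, 261 and 259 CPM in mutants. Neither genotype had an E10.5 embryo above an E10.0 embryo. In mutants the fall was 1.36-fold (log2 -0.45, SE 0.102, adjusted p = 0.000353). It passed in all 14 fits that left out a library, but with replicates 4 and 5 left out together it was -0.27 (adjusted p = 0.168), and in these replicates alone it was -0.60 (adjusted p = 7.14e-05).

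In wild types the difference of Gli3 between stages was -0.30 (95% interval -0.55 to -0.05, adjusted p = 0.114), just short of the limit. It passed when mutant replicates 4 and 5, which are not part of this comparison but share its dispersion estimate, were left out (-0.29, adjusted p = 0.0585), and without wild type replicate 1 of E10.5 it was -0.41 (adjusted p = 0.026). The falls in the 2 genotypes were not distinguished (interaction -0.15, SE 0.156, adjusted p = 0.957). Between genotypes Gli3 differed by 0.03 at E10.0 (95% interval -0.20 to 0.27) and -0.11 at E10.5 (-0.35 to 0.12), and neither passed.

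Hand2 (chromosome 8, 59799780 to 59803314, plus strand), the activator of Shh in the posterior mesenchyme, was at 55.4, 52.3 and 63.6 CPM in wild types and at 47.5, 43.7, 62.2 and 64.9 CPM in mutants at E10.0. Mutant replicates 1 and 3 lay below all wild types and replicates 4 and 5 within or above their range. At E10.5 it was at 63.2, 70.9 and 64.2 CPM in wild types and at 54.4, 51.9, 65.5 and 69.3 CPM in mutants. Here too mutant replicates 1 and 2 lay below all wild types, and replicates 4 and 5 within their range.

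Over all mutants the genotype difference of Hand2 was -0.07 at E10.0 (95% interval -0.36 to 0.22, adjusted p = 0.854) and -0.13 at E10.5 (-0.43 to 0.16, adjusted p = 0.882). Without mutant replicates 4 and 5 it was -0.31 at E10.0 (adjusted p = 0.0304) and -0.31 at E10.5 (adjusted p = 0.0792), and Hand2 then passed the test as lower in mutants at both stages. With replicates 4 and 5 as the only mutants it was 0.17 (adjusted p = 0.248) and 0.04 (adjusted p = 0.864). The Rn45s share separates the same libraries, and its part in the Hand2 values was not tested. With stage Hand2 changed by 0.21 in wild types (adjusted p = 0.402) and by 0.14 in mutants (adjusted p = 0.475), neither of which passed.

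**Figure D3:**
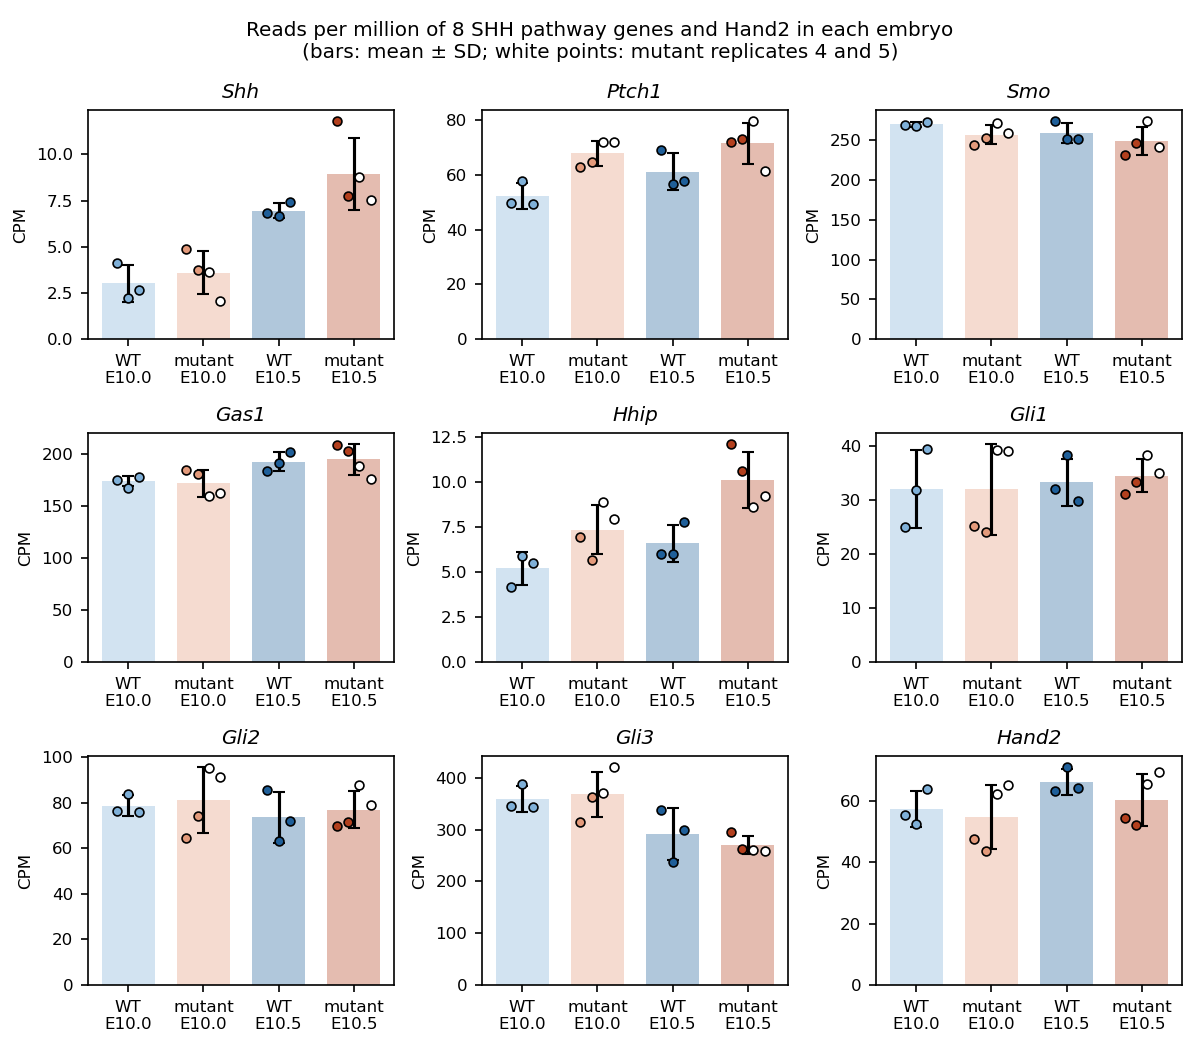
CPM of each member (y axis, from 0) in the 4 groups, with a point per embryo, bars for the mean and error bars for the SD (n = 3 wild types and 4 mutants per stage); white points are mutant replicates 4 and 5. Ptch1 at E10.0 and Hhip at E10.5 show no overlap between genotypes, the mean of Shh rises from 3.03 to 6.96 CPM in wild types, and the white points of Gli1, Gli2 and Hand2 at E10.0 lie above the filled mutant points.

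**Figure D4:**
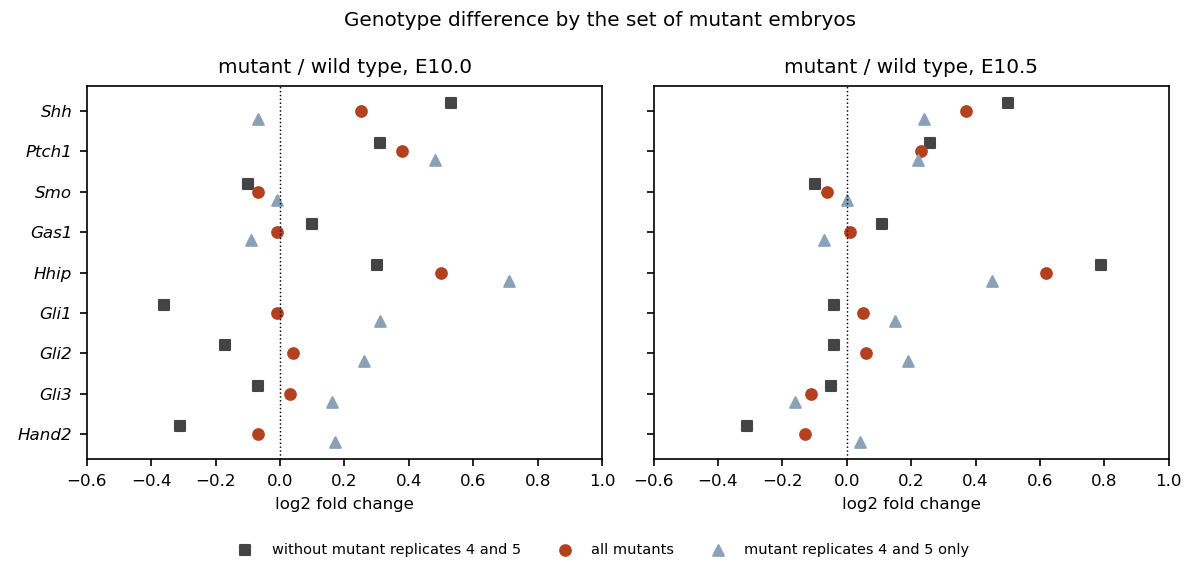
Log2 fold change of mutants over wild types (x axis) for each member at E10.0 and E10.5, with all mutants (circles), without mutant replicates 4 and 5 (squares) and with these 2 alone (triangles). Ptch1 and Hhip lie above 0 in all 3 sets, and Hand2 lies at -0.31 without replicates 4 and 5 and at 0.17 and 0.04 with them alone.

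Ratios within an embryo, which no scaling between libraries can move, were compared as ranges with no test. Hhip to Ptch1 reads stood at 0.0841 to 0.112 in wild types and 0.0876 to 0.124 in mutants at E10.0, and at 0.0871 to 0.135 and 0.109 to 0.168 at E10.5. Genotypes overlapped at both stages. The Shh to Hand2 ratio rose from 0.0422 to 0.0749 at E10.0 to 0.0939 to 0.115 at E10.5 in wild types, without overlap, and from 0.0319 to 0.103 to 0.109 to 0.216 in mutants, also without overlap. Gli1 to Gli3 stood at 0.0722 to 0.114 and 0.0945 to 0.161 in wild types of the 2 stages, which overlapped, and at 0.0664 to 0.106 and 0.106 to 0.147 in mutants, which met at their ends.

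The transcripts whose pattern over the 14 libraries was most like that of a member were found by the root mean square difference of log2(CPM + 1), centred per gene. For Shh they were F13a1 (0.21) and 2700069I18Rik (0.213), at a spread of Shh itself of 0.611. For Ptch1 they were Svil (0.103) and Ptpn21 (0.112), for Gli1 Phf1 (0.119) and Fhod1 (0.128), and for Hand2 Dlg4 (0.0863) and Srcin1 (0.092). With 12393 candidates and 14 libraries that share groups and depth, these are descriptions of likeness only.

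Of 15 other genes of the pathway that release or bind hedgehog ligands, 11 were tested. At E10.0, where 6.61% of all genes passed, only Lrp2, a large endocytic receptor, did so. It had 0.569 ± 0.35 CPM in wild types and rose to 1.54 ± 0.683 CPM in mutants (SD, n = 3 and 4; log2 1.43, SE 0.513, adjusted p = 0.0712), but did not pass the quasi-likelihood test (adjusted p = 0.14). At E10.5 none of the 11 passed by the exact test, the quasi-likelihood test or DESeq2, and 2 had an unadjusted p under 0.05. With stage none of them passed in wild types by these 3 tests (4 with an unadjusted p under 0.05), while in mutants Boc, an SHH co-receptor, rose (log2 0.53, adjusted p = 0.000936) and Lrp2 fell (log2 -1.90, adjusted p = 0.000566). The median log2 fold change of the list was -0.04 and -0.05 in the genotype comparisons. When mutant replicates 4 and 5 were left out, 10 genes were tested. Of these, 3 fell and 0 rose at E10.0, and 2 fell and 0 rose at E10.5. Of all genes, 16.4% then passed at E10.0 (765 up and 1253 down) and 4.27% at E10.5 (319 up and 206 down).

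Components of transduction at the primary cilium and of GLI processing were all expressed, with 33 of 33 tested, of which 3 passed at E10.0 beside 6.61% of all genes. At E10.0, Efcab7, which anchors the EVC complex at the cilium, rose (log2 0.44, adjusted p = 0.09), and Tctn1 of the ciliary transition zone (-0.46, adjusted p = 0.0949) and the kinase gene Stk36 (-0.38, adjusted p = 0.0698) fell. Of these 3 only Stk36 passed the quasi-likelihood test (adjusted p = 0.0911, against 0.125 for Efcab7 and 0.112 for Tctn1). At E10.5 none of the 33 passed by the exact test, the quasi-likelihood test or DESeq2 (2 with an unadjusted p under 0.05), and their log2 fold changes lay between -0.18 and 0.43. With stage Evc2 fell in wild types (-0.30, adjusted p = 0.0626), and Stk36 (0.45, adjusted p = 0.00235) and Kif3a (0.28, adjusted p = 0.00945) rose in mutants. Medians of the list were -0.09 and -0.01 in the genotype comparisons. When mutant replicates 4 and 5 were left out, 9 of the 33 were down and 0 up at E10.0, where 16.4% of all genes then passed, while none passed the exact test at E10.5 (3 with an unadjusted p under 0.05).

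Among 22 regulators of Shh transcription in the limb bud, 4 passed at E10.0 (1 up and 3 down) and 6 at E10.5 (1 up and 5 down). Of all genes, 6.61% and 3.73% passed. Without mutant replicates 4 and 5 the counts were 1 up and 6 down and 1 up and 5 down. Then 16.4% and 4.27% of all genes passed. Tbx2, a T-box repressor, fell from 20.3 ± 1.35 to 11.8 ± 2.69 CPM at E10.0 (log2 -0.79, adjusted p = 1.99e-05) and from 27.6 ± 2.16 to 13.7 ± 1.75 CPM at E10.5 (log2 -1.01, adjusted p = 3.11e-09; SD, n = 3 and 4). Twist1 and Lhx2, which encode mesenchymal transcription factors, fell at both stages (Twist1 by 0.34 and 0.36 and Lhx2 by 0.47 and 0.54 on the log2 scale), and Tbx3 fell at E10.5 (-0.56, adjusted p = 2.09e-07). Hoxd13, which binds the limb enhancer of Shh, was the single riser, by 0.43 at E10.0 (adjusted p = 0.0312) and 0.48 at E10.5 (adjusted p = 0.0114). With stage, the largest called rises of the list were those of Hoxa13 (log2 3.64 in wild types and 4.69 in mutants, from under 1 CPM) and Hoxd12 (1.37 and 1.66).

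Genes listed as posterior and dependent on SHH moved both ways between genotypes. Of 15 tested, 2 were up and 2 down at E10.0, and 4 up and 4 down at E10.5. Of all genes, 6.61% and 3.73% passed. Tbx2 at both stages and Tbx3 at E10.5 are among the falls, and the study counts Tbx2 as an anterior gene. It reports most posterior genes of its own set as restrained by Smad4, with Grem1 the exception. The HoxD genes, Tbx2 and Tbx3 were also counted among the regulators above. The counts without mutant replicates 4 and 5 were 3 up and 2 down and 4 up and 4 down. Of all genes, 16.4% and 4.27% then passed. Grem1, the BMP antagonist, fell from 23.2 ± 4.26 to 9.97 ± 1.16 CPM at E10.0 (log2 -1.22, adjusted p = 1.73e-15) and from 28.6 ± 3.16 to 13.4 ± 1.19 CPM at E10.5 (log2 -1.09, adjusted p = 9.34e-13; SD, n = 3 and 4). Bmp2, a posterior BMP ligand, rose at E10.5 from 2.95 ± 0.477 to 5.54 ± 0.135 CPM (log2 0.91, adjusted p = 9.51e-06). Of the others, Cdk6 rose at E10.0 (0.39, adjusted p = 0.0469). The called rises with stage were 7 in wild types and 10 in mutants, against 1 and 2 falls. Of all genes, 10.1% and 19.2% passed in these stage comparisons. The rises were led by Fgf4 (log2 1.43) and Hoxd12 in wild types and by Hoxd12 and Fgf9 (1.47) in mutants.

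Of 12 tested genes listed as anterior and restrained by SHH or HAND2, 6 fell and 0 rose in mutants at E10.0. Of all genes, 6.61% passed there in either direction. At E10.5, where 3.73% of all genes passed, 8 fell and 1 rose. The same counts without mutant replicates 4 and 5 were 6 down and 0 up and 6 down and 1 up. Of all genes, 16.4% and 4.27% then passed. Pax1, a skeletal patterning factor, fell from 2.94 ± 1.71 to 0.409 ± 0.102 CPM at E10.0 (log2 -2.87, adjusted p = 6.09e-15) and from 17 ± 2.42 to 2.79 ± 0.503 CPM at E10.5 (log2 -2.61, adjusted p = 5.51e-16; SD, n = 3 and 4). Msx2, a BMP-responsive homeobox gene, fell by 1.05 and by 1.66 on the log2 scale, and Rspo4, a WNT agonist, fell by 0.59 and by 1.43. Asb4 fell by 0.63 and by 0.59. The study describes Msx2 as expressed on both the anterior and the posterior side, with the wider domain anterior. Lhx2 of this list was also counted among the regulators above. With stage, Pax1 rose (2.53 in wild types and 2.79 in mutants), Tbx18 rose in wild types (0.60) and Gata6 fell in mutants (-1.77). The medians of the list were -0.29 and -0.56. The study describes some of these genes from these same samples, so that the counts are not independent evidence of a direction.

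**Figure D5:**
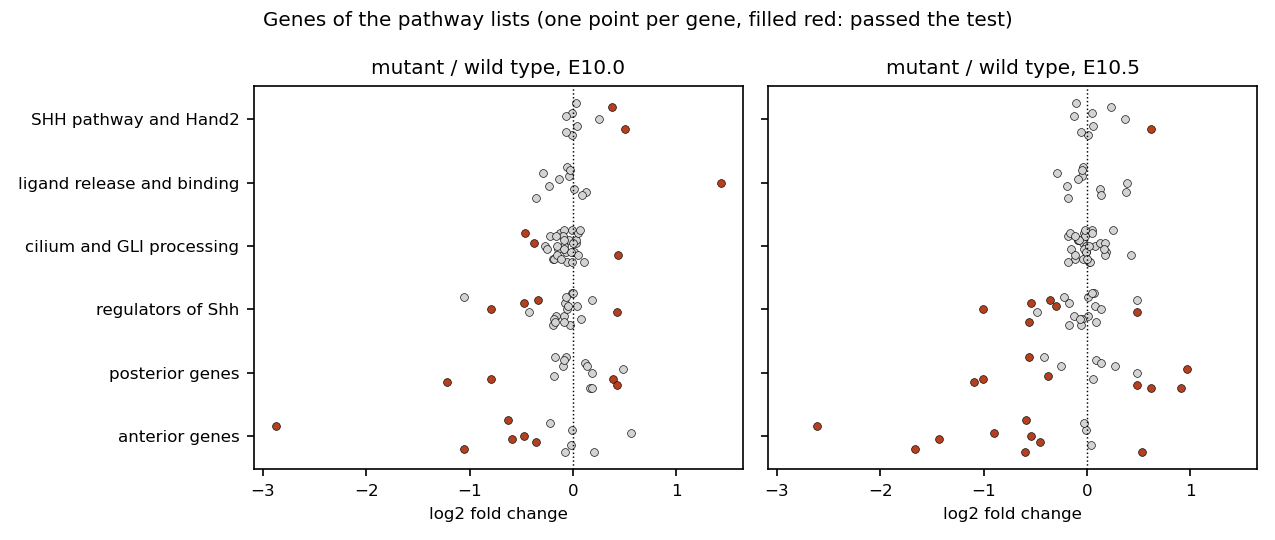
Log2 fold change of mutants over wild types (x axis) at E10.0 and E10.5 for each tested gene of 6 lists (rows), with genes that passed the test in red and the others in grey. Most points of the SHH pathway, ligand and cilium rows lie close to 0 and few are red, but Lrp2 of the ligand row stands at 1.43 at E10.0. Red points of the anterior row reach -2.87 at E10.0 and -2.61 at E10.5.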

How the data were processed

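The deposited files hold raw counts per gene symbol for 14 libraries. The authors aligned polyA, unstranded single-end reads to mm9 (TopHat2 2.0.13 per the labels), and counted uniquely mapped reads with HTSeq, whose version is not given in the sources used here. Symbols on chromosomes X, Y and M (1041 of 23284) were left out, and the 12393 genes that reached 1 CPM in 3 or more libraries were tested. For this filter CPM was taken over all symbols not left out, before TMM scaling. Libraries were scaled by TMM (factors 0.934 to 1.04). The main test, edgeR's exact test with tag-wise dispersions (prior of 10 degrees of freedom) and Benjamini-Hochberg adjustment, follows the study's methods, and estimating the dispersions over all libraries was chosen here; SE and intervals come from edgeR's quasi-likelihood fit, which also tested the interaction. Reads in no feature were 6.18% to 9.86% and ambiguous reads 1.49% to 1.75%. No replicates were near copies (chi-square per degree of freedom at least 12.9).

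Same-numbered mutants of the 2 stages deviated together (correlation 0.269 to 0.611, 3 pairs), from the data and not from the labels. Differently numbered mutants of the 2 stages overlapped this range (-0.587 to 0.383), so a match by number is not established. The members and gene lists were chosen with earlier results of these data known. Other genes were named when called in a genotype comparison (at most 4 per list by smallest p) or, in stage comparisons, as the 2 largest called changes of a list. The genes most like Hhip in pattern are not reported here. GLI motif searches used NCBIM37 (mm9) with GENCODE vM1, and RefSeq promoters of GRCm38.p6. Tests were tried on simulated data. Alternatives were RLE scaling, DESeq2, no filter, X, Y and M kept, the quasi-likelihood test, a replicate block, 2-group fits and left-out libraries. R 4.3.3 was used with edgeR 4.0.16 and DESeq2 1.42.0, and Python 3.11.15 with matplotlib 3.10.9.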

Additional observations from a re-analysis of the deposited data

Results flagged for a closer look

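Among the 9 members in the 2 groups of 4 mutants, 1 value stood apart from its group by Dixon's test. Gli3 in mutant replicate 1 of E10.5 was at 296 CPM, against 259 to 263 CPM in the other 3 mutants, so that its gap to the nearest of the others was 0.896 of the range of the group, above the critical value for groups of 4. Chance gives such a gap in about 1 in 20 groups, and 18 were examined. Without this library the fall of Gli3 with stage in mutants still passed, as in all 14 fits that left out a library.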

How the results depend on the processing

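Shh with stage in both genotypes was called in all 14 fits that left out a library. Counts of called members with a library left out ranged from 0 to 2 at E10.0, 0 to 1 at E10.5, 1 to 2 between stages in wild types and 2 to 3 in mutants. At E10.0, 1 member was called by the quasi-likelihood test and 1 with the 2 groups alone, since Hhip, at 0.50 and 0.51, was lost (adjusted p = 0.131 and 0.122). Without mutant replicates 4 and 5, 2 members were called at E10.5 and 2 between stages in wild types, and 2 in wild types also with the 2 groups alone or with these replicates as the only mutants, a setting chosen after seeing the data. Over all genes, 819 were called at E10.0 (254 to 1062 with a library left out, 2018 without mutant replicates 4 and 5, 1520 with these alone). The quasi-likelihood test called 601 there, and the fit of the 2 groups alone 692. At E10.5, 462 were called (286 to 516 with a library left out, 525 without mutant replicates 4 and 5, and 1437 with these alone). Between stages 1256 were called in wild types (484 to 1515, 1826 without mutant replicates 4 and 5, 1932 with the 2 groups alone, 2046 with mutant replicates 4 and 5 as the only mutants). In mutants 2374 were called between stages (1895 to 2732). For the interaction 23 were called (7 to 34, 87 with DESeq2, 39 with no filter, 6 without mutant replicates 4 and 5).

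Differences near 0 changed sign with the processing, and the cause was not tested. At E10.0 with RLE scaling, DESeq2 or no filter, Gli1 and Gas1 were at 0.01. Without mutant replicates 4 and 5, Gli2 was at -0.17, Gli3 at -0.07 and Gas1 at 0.10 at E10.0, Gli1 and Gli2 at -0.04 at E10.5, Gli2 at 0.04 between stages in mutants and the Gli3 interaction at 0.01. With these as the only mutants, Shh was at -0.07, Gli1 at 0.31 and Hand2 at 0.17 at E10.0, Gas1 at -0.07 and Hand2 at 0.04 at E10.5, Ptch1 at -0.01 and Gli1 at -0.08 between stages in mutants, and the Hhip interaction at -0.26. With a library left out, ranges at E10.0 were -0.16 to 0.18 for Gli1, -0.04 to 0.15 for Gli2, -0.04 to 0.11 for Gli3, -0.04 to 0.02 for Gas1 and -0.16 to 0.03 for Hand2. At E10.5 they were -0.02 to 0.17 for Gli1, -0.03 to 0.19 for Gli2, -0.23 to 0.01 for Gli3 and -0.02 to 0.06 for Gas1. Between stages they were -0.10 to 0.24 for Gli1 and -0.21 to 0.01 for Gli2 in wild types, and -0.17 to 0.01 for Gli2 in mutants.

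Replicate numbers are shared by 2 pairs in the genotype comparisons, whose correlations (-0.188 to 0.174 at E10.0, -0.26 to -0.0512 at E10.5) do not show pairing, and by 3 pairs of wild types (-0.283 to -0.0785). With the replicate block over all libraries, 1961 genes were called at E10.0 and 280 at E10.5. Gli2 was then at -0.14, Gli3 at -0.02 and Gas1 at 0.07 at E10.0, and Gli1 at -0.14 and Gli2 at -0.11 at E10.5. Hhip kept its log2 values of 0.50 and 0.62 but was not called at either stage (adjusted p = 0.137 and 0.203), and Hand2 was called as lower in mutants (-0.29, adjusted p = 0.0556; -0.35, adjusted p = 0.09). Between stages in mutants the block changed no member's call over all libraries, and Hhip's among mutants alone, a fit added after seeing the data. Shh and Hhip were covered by 84 to 679 reads per embryo, and differences of Shh between genotypes inside its intervals were not resolved here.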
